A study of Mus musculus with 14 samples.

Results

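The genes described here encode the nuclear subunits of the mitochondrial respiratory chain complexes I, III and IV and of ATP synthase (complex V), measured by RNA sequencing in mouse bone marrow-derived macrophages. They are the table entries with a single gene name that starts with Nduf, Uqcr, Cox4, Cox5, Cox6, Cox7, Cox8 or Atp5, without entries ending in -ps. The rule found 82 genes among 39721 entries, of which 37862 carry a name. Of these, 40 belong to complex I (33 subunits and 7 assembly factors named Ndufaf), 8 to complex III and 17 to complex IV. Another 15 are counted as complex V, and 2 are Ndufa4 and its paralog Ndufa4l2. Those 15 include Atp5s and Atp5sl, which are not subunits of the enzyme, and Atp5l2, which RefSeq names Atp5l2-ps. A level of at least 1 FPKM (fragments per kilobase of transcript, scaled to the library's mapped fragments) in at least 2 libraries was reached by 75 of the 82: 40, 8, 12, 14 and 1 in these sets. The other 7 (Ndufa4l2, Cox4i2, Cox6b2, Cox7b2, Cox8b, Cox8c and Atp5l2) stayed at or below 1.47 FPKM in every library and were not tested. Reads shared with processed pseudogenes, which many of these genes have, cannot be told apart in these values, and 14 tested members share a locus with another tested entry. Ndufs1, Ndufb11, Uqcrb, Uqcrh, Cox5a and Atp5f1 are among those 14. Cox4i1 was not analysed here, and the subunit genes Ndufb2, Ndufb8, Atp5d, Atp5k and Atp5o share an entry with a neighbouring gene and fall outside the rule.

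Complex I takes electrons from NADH through its N module, passes them to ubiquinone in its Q module and pumps protons in its membrane arm. Complex III passes the electrons on to cytochrome c, complex IV reduces oxygen with them, and complex V, a rotary enzyme with a catalytic F1 head and a ring of c subunits, makes ATP from the proton gradient. The catalytic cores of complexes I, III and IV are partly encoded by mitochondrial DNA, while the genes here supply the other subunits. Macrophages stimulated through Toll-like receptors are known for turning from respiration towards glycolysis.

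The study asked how a first stimulus changes the response to a second. Male C57Bl6/J mice aged 6 to 12 weeks gave the marrow cells, L929-conditioned medium served as the source of CSF-1, and no group carries a genetic change. Cells received PBS or 100 ng/mL Poly I:C, a double-stranded RNA analogue that stimulates TLR3, for 24 h, were washed, and then received PBS or LPS, the ligand of TLR4, for 2 or 6 h. The dose of the second LPS is not stated. The 8 groups are called here by first and second stimulus: PBS then PBS (1 library at each time), PBS then LPS, Poly I:C then PBS and Poly I:C then LPS (2 libraries each at each time). The labels do not say that replicates came from separate cultures or animals, so p-values measure the spread between these libraries, which may be technical.

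The deposited values are FPKM, so the number of reads is unknown. The value of 1 fragment, read from the steps between low values, differed 3.07-fold between libraries. The 7 measured macrophage markers summed to 13821 to 20596 FPKM in the libraries given PBS first and 5054 to 8112 in those given Poly I:C first. Lymphoid, erythroid and mast cell marker sums stayed below 1 FPKM, the neutrophil sum reached 8.33, and the fibroblast or stromal sum ran from 14.2 in PBS then LPS 2 h replicate 2 to 104.6 in Poly I:C then LPS 2 h replicate 1, and the sums of these other lists overlapped between libraries given PBS and Poly I:C first. In a bulk sample, fewer cells of a type and less RNA per cell cannot be told apart. The members held 0.836% of the FPKM of named entries in Poly I:C then LPS 2 h replicate 1 and 2.12% in PBS then LPS 2 h replicate 1.

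That last library stood apart and is called the outlying library below. Its value exceeded that of the other PBS then LPS 2 h library in 73 of 75 members, by a median of 0.56 (log2, 1.48-fold), whereas the median over all 11977 tested entries was 0.05. In the other 5 groups with 2 libraries, the members' replicates differed by medians of 0.10 to 0.14 (log2, sign dropped). The gap moved with transcript length: other protein-coding genes whose longest transcript is under 1000 nt were 1.45-fold higher in that library (median, n = 457), those of 2000 nt or more 0.959-fold (n = 7110), and the 42 members under 1000 nt 1.54-fold. Its part in the results was not tested beyond leaving the library out. As an alternative to the deposited scale, all libraries were scaled to the same total of single-gene entries. This moved the median change of all tested genes to -0.35 in the priming comparison at 2 h. In the LPS comparisons that median moved to between -0.28 and -0.52 (log2). Limma calls under same-total scaling are given beside the main ones. The share of all entries called under it is not given, so those counts do not set the members apart from other genes. The median member read 53.9 FPKM in Poly I:C then LPS 6 h replicate 1 and 121 in the outlying library. Complex medians ran over the libraries from 34.4 to 90.4 FPKM for complex I, 79.7 to 255 for complex III, 108 to 280 for complex IV and 97.1 to 252 for complex V.

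**Figure D1:**
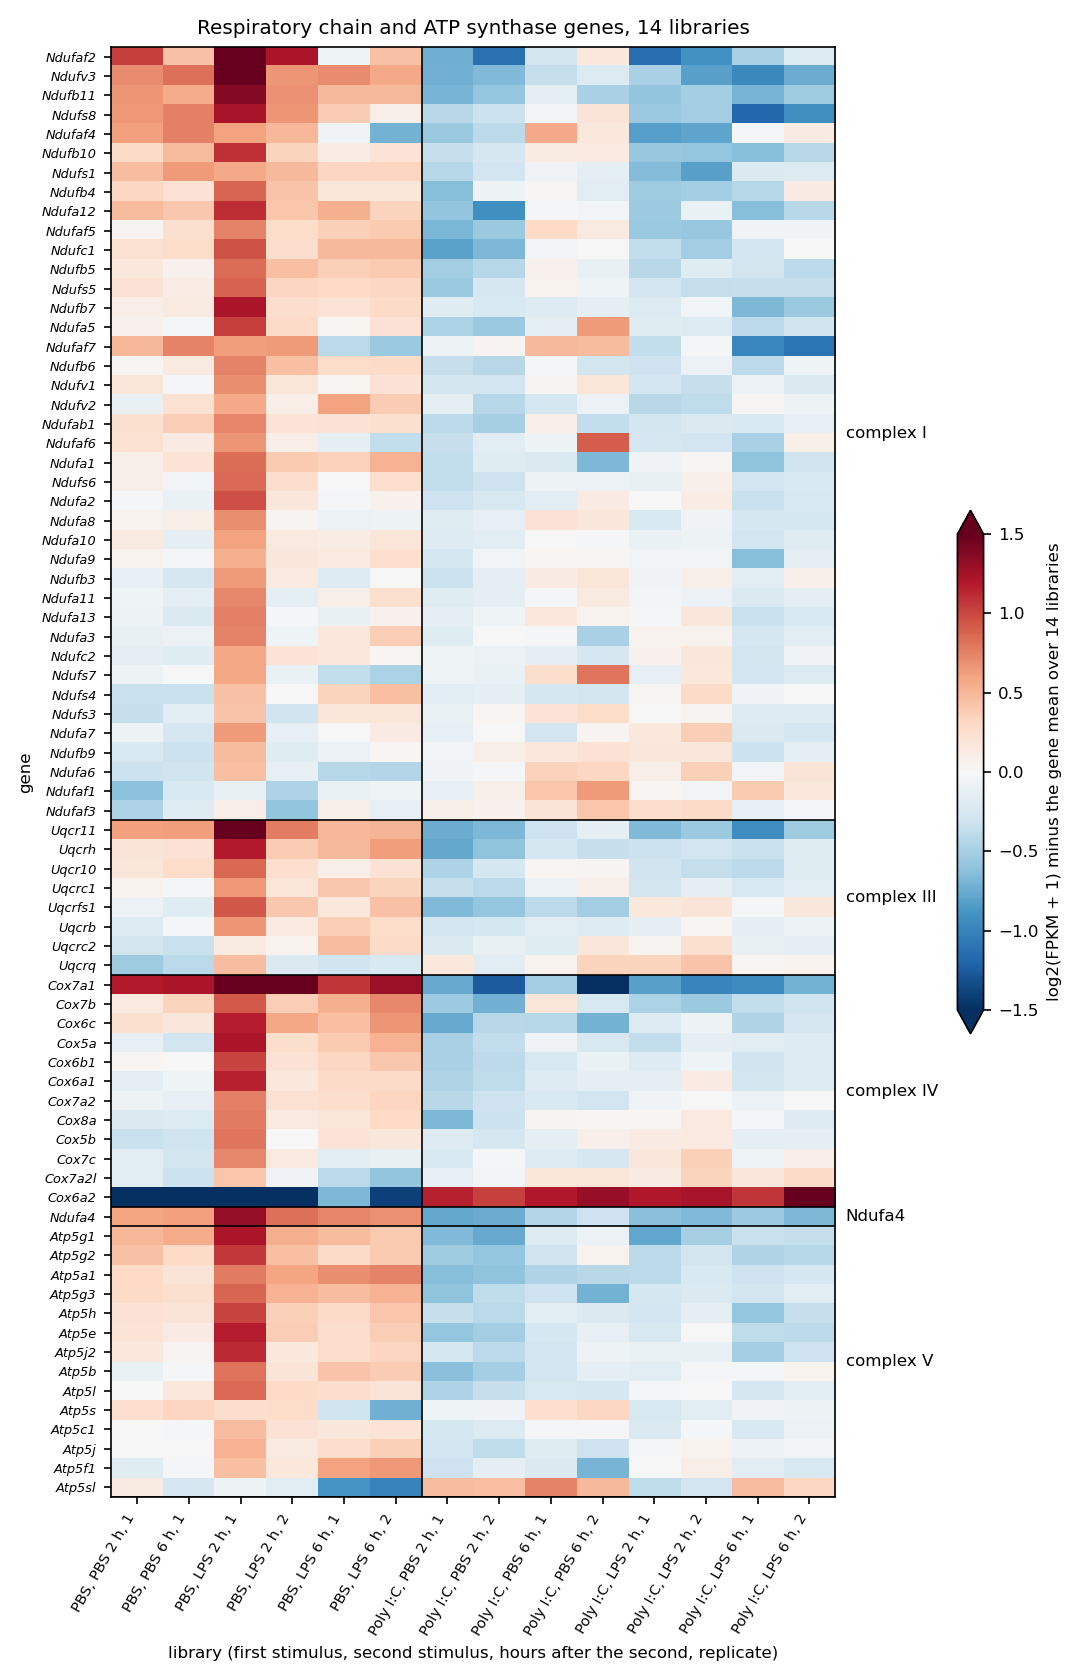
Level of the 75 tested genes (rows, by complex) in each of the 14 libraries (columns), as log2(FPKM + 1) minus the gene's mean over all libraries. The 6 libraries given PBS first, left of the vertical line, are mostly red and the 8 given Poly I:C first mostly blue, with Cox6a2 the reverse. Colours saturate at 1.5. PBS then LPS 2 h replicate 1 is the reddest column.

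Most members read lower in cells given Poly I:C first, least so at 6 h with PBS second. Of the 75 changes, 66 at 2 h and 63 at 6 h were below 0 with LPS second. With PBS second, 59 and 47 were below 0. In that last comparison the median was only -0.15 and 11 members were called lower. In 28 of the 75 tested members (37.3%), every one of the 8 libraries given Poly I:C first lay below every one of the 6 given PBS first, compared with 8.88% of all tested entries. In 1 member, Cox6a2, all 8 lay above, compared with 5.67% of all entries, and in 46 members the libraries overlapped. Leaving out PBS then LPS 2 h replicate 1 left the count of lower members at 28 and raised that of higher ones to 3. By complex, the separated lower members were 12 of 40 in complex I, 3 of 8 in complex III, 3 of 12 in complex IV, 9 of 14 in complex V, and Ndufa4. Under same-total scaling 15 members separated downwards (20% against 7.31% of all entries) and Cox6a2 still upwards. These 15 are not all among the 28. Most of the 28 overlapped under that scaling, Ndufs1, Atp5g1, Atp5g2 and Atp5j2 among them. Cox7a2, Atp5f1 and Ndufs4 were among the members that separated only under it. The heatmap of the members, on the deposited scale, shows the split by first stimulus and the higher values of the outlying library. Among the entries that merge a subunit gene with a neighbour, those of Ndufb8 and Ndufb2 were also lower in all 8 libraries given Poly I:C first (79.3 to 107 against 129 to 229 FPKM, and 24.4 to 44.5 against 50.3 to 110), and those of Atp5d, Atp5k and Atp5o overlapped. Some cell type markers split the libraries in the same way. Of the 7 macrophage markers, Lyz2 (10930 to 16240 FPKM with PBS first against 2408 to 4397), Itgam (85.7 to 199 against 24.2 to 49.4) and Csf1r (228 to 330 against 112 to 208) were lower in all 8 libraries given Poly I:C first, and the other 4 overlapped. Of the 4 fibroblast or stromal markers, Dcn was higher in all 8 (1.95 to 10.2 against 0.172 to 1.49) and the other 3 overlapped. The part of these markers' cells in the members' changes was not tested.

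Promoter sequences are shown for 5 members because nuclear respiratory genes are known to share sites for the factors NRF1 and for ETS proteins such as GABP. In RefSeq (GRCm38.p6) windows from 250 bases before to 50 after a gene's start, 65 tested members had 70 windows. The letters TGCGCA, a part of the NRF1 site, occurred on either strand in 24.3% of the members' windows and in 7.76% of all 32851 windows. The ETS letters CCGGAAG occurred in 20% and 8.86%, and AAGATGG, the core of the site of the factor YY1, in 17.1% and 6.34%. The ETS and YY1 letters can overlap in the bases AAG. These matches are descriptions of letters, not of binding or of whole sites, which can extend past the letters or lie elsewhere. The 200 bases before the start are printed 5′ to 3′ on the gene's strand, with matches to these letters in capitals. The first 3 genes encode a c subunit of ATP synthase (chr15:102671048-102671247), subunit 6A of complex IV (chr5:115348959-115349158) and a small subunit of complex III (chr10:80406822-80407021). In turn they hold the NRF1 letters, the NRF1 letters with ETS letters on the opposite strand, and the ETS letters alone. The last 2, which changed in opposite directions at 6 h and which hold none in this stretch, encode NDUFA4 (chr6:11907451-11907650) and the supercomplex factor COX7A2L (chr17:83514334-83514533), all on the minus strand.
Atp5g2: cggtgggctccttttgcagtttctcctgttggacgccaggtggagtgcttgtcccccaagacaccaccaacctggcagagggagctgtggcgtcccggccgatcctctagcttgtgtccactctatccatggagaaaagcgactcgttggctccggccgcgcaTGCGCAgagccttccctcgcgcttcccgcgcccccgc
Cox6a1: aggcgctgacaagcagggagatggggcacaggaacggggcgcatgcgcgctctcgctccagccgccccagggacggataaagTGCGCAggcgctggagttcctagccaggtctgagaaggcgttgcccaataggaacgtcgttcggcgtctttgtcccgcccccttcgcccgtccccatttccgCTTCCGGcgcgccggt
Uqcr11: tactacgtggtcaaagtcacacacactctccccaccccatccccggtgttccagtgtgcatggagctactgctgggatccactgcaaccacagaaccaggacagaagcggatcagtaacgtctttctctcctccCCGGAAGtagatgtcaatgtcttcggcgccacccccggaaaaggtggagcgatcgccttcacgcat
Ndufa4: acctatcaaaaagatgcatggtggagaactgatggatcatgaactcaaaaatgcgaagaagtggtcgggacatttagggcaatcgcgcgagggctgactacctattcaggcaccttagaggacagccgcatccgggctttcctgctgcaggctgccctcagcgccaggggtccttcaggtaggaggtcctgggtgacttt
Cox7a2l: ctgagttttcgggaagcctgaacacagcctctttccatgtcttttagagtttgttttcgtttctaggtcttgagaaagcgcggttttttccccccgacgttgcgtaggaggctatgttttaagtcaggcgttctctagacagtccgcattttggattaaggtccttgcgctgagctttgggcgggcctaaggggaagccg
The 34 tested members with any of these letters in the window had a median log2 change of -0.65 after Poly I:C then LPS against PBS then LPS at 2 h, and the 31 without had -0.74. Without PBS then LPS 2 h replicate 1 these medians were -0.29 and -0.50. At 6 h the medians were -0.49 and -0.43.

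The priming comparison asked how LPS-stimulated cells differ when Poly I:C came first (Poly I:C then LPS against PBS then LPS). At 2 h, 49 of 75 members fell and 2 rose, that is 68% called, beside 61.1% of all 11977 tested entries (28.5% lower, 32.6% higher). The median member changed by -0.65, that of all entries by 0.05 (log2 of FPKM + 1, as all changes here). At 6 h, 38 fell and 5 rose, beside 49.6% of all entries called (25.9% lower, 23.7% higher), with a median member change of -0.44 and a median of all entries near 0. Other short genes also read lower. Under 1000 nt, the 2 h median was -0.70 in the 42 members and -0.32 in 457 other protein-coding genes. Without PBS then LPS 2 h replicate 1 these were -0.33 and -0.09, and at 6 h -0.47 and -0.19. At 2000 nt or more, the 2 h medians were -0.91 in 8 members and 0.08 in 7110 other genes. Between these lengths they were -0.49 and -0.14. Differences within a length class were not tested. At 6 h the 43 calls became 28, 26 and 23 without PBS then LPS 6 h replicate 1, PBS then LPS 6 h replicate 2 and Poly I:C then LPS 6 h replicate 1, each in turn. Calls are limma tests with Benjamini-Hochberg adjusted p under 0.05 over all entries. Same-total scaling gave 71 lower and 1 higher at 2 h, where it also moved the median of all entries below 0. At 6 h it gave 35 lower and 7 higher. The shares of all entries called under it are not given. Without PBS then LPS 2 h replicate 1, 39 members fell and 8 rose at 2 h, and the median was -0.37. The members called lower at both times numbered 33, which is 67.3% of the 2 h list and 86.8% of the 6 h list, beside 46.5% and 51.1% for all entries.

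**Figure D2:**
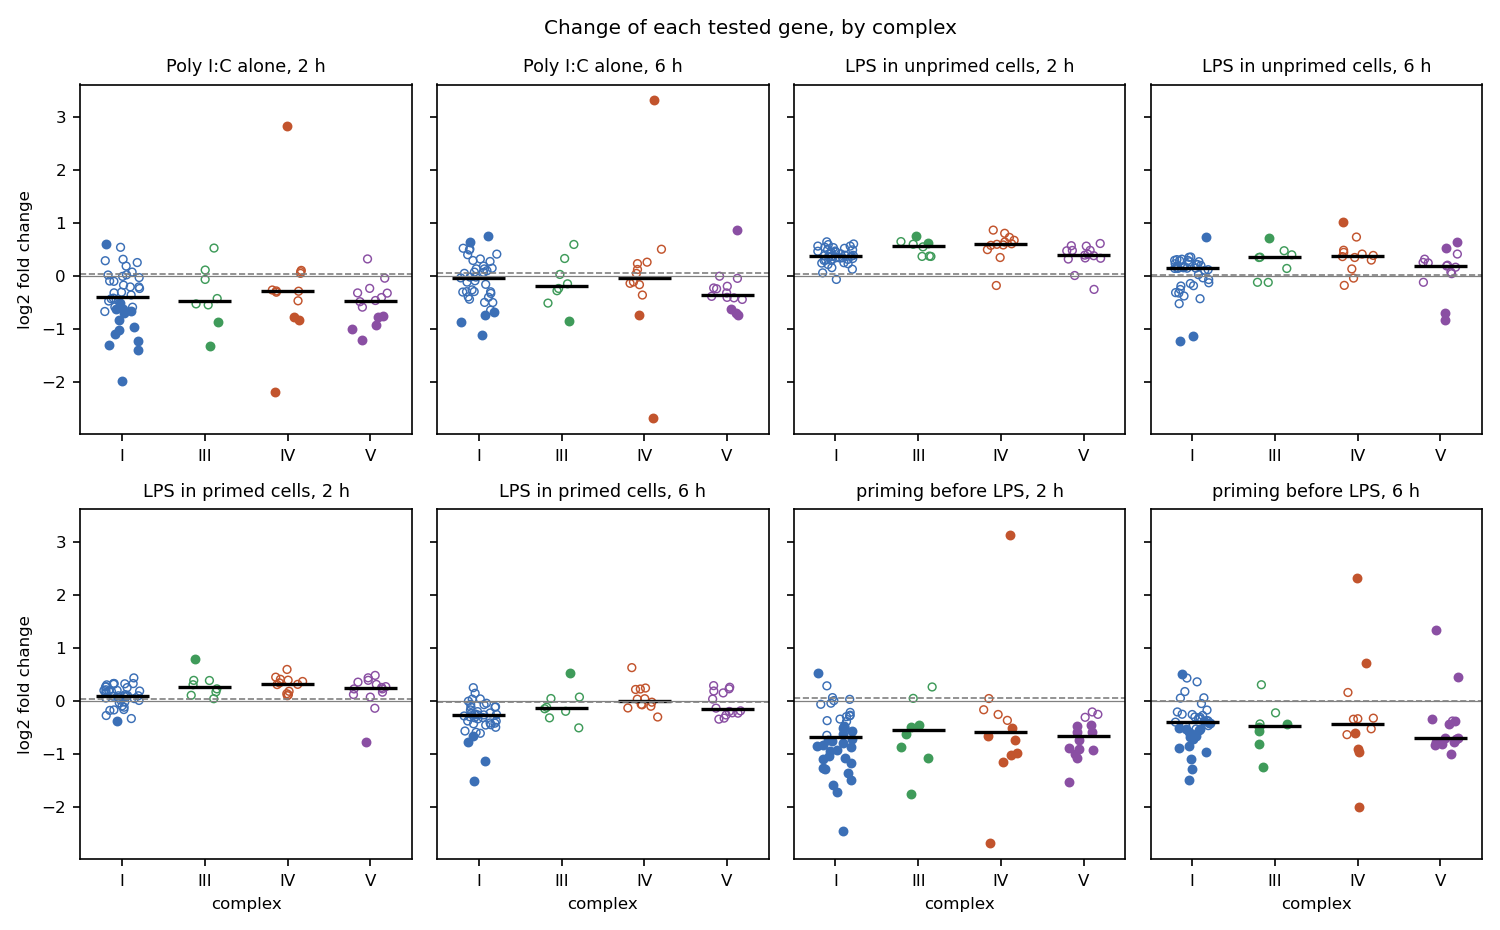
Log2 fold change of each tested gene (points) by complex (horizontal axis) in 8 comparisons (panels). Filled points passed the limma test (adjusted p under 0.05), thick lines are medians per complex and the dashed line is the median of all tested entries. In the priming panels the complex medians lie between -0.41 and -0.70. Ndufa4 is not drawn.

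The medians of complexes I, III, IV and V were all below 0. At 2 h, 24 of 40 complex I genes, 6 of 8 in complex III, 7 of 12 in complex IV and 11 of 14 in complex V fell, with medians of -0.68, -0.56, -0.59 and -0.67. At 6 h, 17, 5, 4 and 11 fell and the medians were -0.41, -0.47, -0.44 and -0.70. Differences between complexes were not tested. All counts by complex or module stand beside 28.5% of all entries lower and 32.6% higher at 2 h. At 6 h these shares were 25.9% and 23.7%. The plot of changes by complex shows that the spread within each complex was wider than the spread between the complex medians.

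In the N module of complex I, 6 of 8 genes fell at 2 h and 5 of 8 at 6 h, and none rose. Ndufs1, the large iron-sulphur subunit of the N module, read 25.1 and 23.7 FPKM in PBS then LPS at 2 h and 10.2 and 9.0 in Poly I:C then LPS. It read 21.1 and 21.0 against 14.1 and 14.3 at 6 h. The groups did not overlap, and the replicates, the outlying library included, lay close together. The deposited locus of Ndufs1 overlaps tested entries of Eef1b2 and Ino80d. The change was -1.26 ± 0.11 at 2 h (SE, n = 2 libraries a group; limma adjusted p = 5.57e-06) and -0.53 ± 0.11 at 6 h (adjusted p = 0.00282). Ndufv3, a small accessory subunit of the same module, read 172 and 96.3 against 43.1 and 33.9 FPKM at 2 h and 99.4 and 89.95 against 30.6 and 35.8 at 6 h. It fell by 1.73 ± 0.23 and 1.49 ± 0.23 on the log2 scale (SE). Ndufv1, which binds NADH and the flavin, fell at 2 h (-0.75 ± 0.16 SE, adjusted p = 0.00214, and -0.496 without the outlying library) and did not pass the test at 6 h (-0.28 ± 0.16, adjusted p = 0.177). Ndufs4, an accessory subunit, changed by -0.07 ± 0.15 at 2 h and fell by 0.41 ± 0.15 at 6 h (SE).

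Of the 7 Q module genes, 2 fell at 2 h, beside 28.5% of all entries. At 6 h 2 fell and 1 rose, beside 25.9% and 23.7% of all entries. Ndufs8, an iron-sulphur subunit next to the quinone site, read 57.6 and 38.3 against 15.9 and 16.3 FPKM at 2 h and 31.3 and 25.4 against 9.97 and 12.1 at 6 h. Both primed pairs lay below both unprimed pairs, and the falls were 1.49 ± 0.19 and 1.29 ± 0.19 (log2, SE). Ndufa6 was the member that rose at 6 h, by 0.50 ± 0.18 (SE, adjusted p = 0.0358), from 60.2 and 59.7 to 78.7 and 92.8 FPKM. At 2 h its change was 0.06 ± 0.18. There it passed at 0.35 without the outlying library (adjusted p = 0.047), and turned to -0.46 under same-total scaling. Of the 18 membrane arm genes, 12 fell at 2 h and 9 at 6 h. Ndufb11 changed most among them, and read 121 and 74.8 against 30.3 and 32.005 FPKM at 2 h and 65.03 and 65.14 against 28.1 and 31.6 at 6 h. It fell by 1.58 ± 0.20 and 1.10 ± 0.20 (log2, SE).

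Of the 7 assembly factors of complex I, 4 fell and 1 rose at 2 h, and 1 fell at 6 h. Ndufaf2, which binds late intermediates of the complex, read 29.9 and 22.1 FPKM in PBS then LPS against 3.48 and 4.26 in Poly I:C then LPS at 2 h. At 6 h it read 8.49 and 12.4 against 6.06 and 7.60. The groups were far apart at 2 h and close at 6 h, where the unprimed level was lower: the changes were -2.46 ± 0.24 (SE, adjusted p = 1.04e-05) and -0.53 ± 0.24 (adjusted p = 0.0876). Ndufaf4, an assembly factor of the Q module, changed by -1.36 ± 0.22 at 2 h (adjusted p = 0.000374) and by 0.43 ± 0.22 at 6 h (SE, adjusted p = 0.13). Its levels were 5.73 and 5.28 against 1.51 and 1.57 FPKM at 2 h, and 3.27 and 1.71 against 3.36 and 3.82 at 6 h. The test of the difference between the priming effects, 6 h minus 2 h, gave 1.93 ± 0.33 for Ndufaf2 and 1.79 ± 0.31 for Ndufaf4 (log2, SE; adjusted p = 0.0011 and 0.00108). Ndufaf3 rose at 2 h by 0.52 ± 0.20 (SE, adjusted p = 0.0406), a change of 0.86 without the outlying library and a call lost under same-total scaling, where the change was 0.03.

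In complex III, the small subunit gene Uqcr11 changed most. It read 361 and 210 FPKM in PBS then LPS against 77.2 and 83.4 in Poly I:C then LPS at 2 h, and 173 and 176 against 63.6 and 84.4 at 6 h. Primed libraries were lower throughout, by 1.77 ± 0.22 and 1.24 ± 0.22 (log2, SE). The fall at 2 h was 1.38 without the outlying library. Uqcrh, the acidic hinge protein that helps dock cytochrome c, fell by 1.09 ± 0.21 and 0.82 ± 0.21. Uqcrc1, a core protein, fell by 0.63 ± 0.15 and 0.57 ± 0.15, while its partner Uqcrc2 changed by 0.05 ± 0.13 at 2 h and fell by 0.50 ± 0.13 at 6 h (all log2, SE). Without the outlying library the falls at 2 h were smaller, with changes of -0.69 for Uqcrh and -0.39 for Uqcrc1, both still passing. Uqcrc2 turned to -0.47 at 2 h under same-total scaling. Uqcrfs1, the Rieske iron-sulphur protein, fell at 2 h (-0.49 ± 0.17 SE, adjusted p = 0.0265), a call lost without the outlying library (-0.23, adjusted p = 0.176), and changed by -0.23 ± 0.17 at 6 h. Uqcrq, another small subunit, did not pass the test at either time (0.26 and 0.30). Its change at 2 h was 0.60 and passed without the outlying library (adjusted p = 0.00804), and was -0.26 under same-total scaling.

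In complex IV, of the 9 widespread subunit genes, 6 fell at 2 h and 3 at 6 h, none rose, and Cox7b fell most (1.16 ± 0.19 and 0.96 ± 0.19, log2, SE). Cox5a, which binds close to the catalytic core, fell at 2 h (-0.99 ± 0.25 SE, adjusted p = 0.00546, and -0.51 without the outlying library) and changed by -0.64 ± 0.25 at 6 h (adjusted p = 0.0537). Cox8a did not pass at either time (-0.37 ± 0.19 and -0.35 ± 0.19 SE). Cox6a1 fell at 2 h (-0.66 ± 0.25 SE, adjusted p = 0.039) through the outlying library, which read 527 FPKM beside 265, 215 and 258 in the other 3. Without it the change was -0.17 (adjusted p = 0.226).

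Cox6a2, the heart and muscle form of subunit 6A, was the highest riser. In the 6 libraries given PBS first it ran from 1.94 to 6.70 FPKM (median 2.58), and in the 8 given Poly I:C first from 23.9 to 33.4 (median 27.2). No library of one kind reached those of the other. The change in the priming comparison was 3.13 ± 0.22 at 2 h and 2.32 ± 0.22 at 6 h (log2, SE; adjusted p = 1.19e-06 and 1.85e-05). Cox6a1, the widespread form, still made up 86.0% to 90.2% of the summed FPKM of the pair in cells given Poly I:C and at least 97.7% in the others. The deposited locus of Cox6a2 (chr7:128154376-128223816 in GRCm38) is shared with an entry for the integrin gene Itgad, whose RefSeq span overlaps that of Cox6a2 by 70 bases. That entry read between 0 and 1.13 FPKM over all libraries and was at 0 in both Poly I:C then PBS 2 h libraries, where Cox6a2 read 26.1 and 23.9.

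Cox7a1, the muscle form of subunit 7A, moved the other way. It ran from 10.0 to 19.5 FPKM in the 6 libraries given PBS first and from 0 to 2.64 in the 8 given Poly I:C first, with no overlap, and was listed at 0 in Poly I:C then PBS 6 h replicate 2. In the priming comparison it fell by 2.69 ± 0.46 at 2 h and 2.01 ± 0.46 at 6 h (log2, SE; adjusted p = 0.000581 and 0.00489). Cox7a2l encodes a related protein known as a factor of supercomplexes of complexes III and IV, which were not measured here. It rose at 6 h (0.72 ± 0.15 SE, adjusted p = 0.00314), from 90.03 and 79.1 to 134 and 146 FPKM, and changed by 0.04 ± 0.15 at 2 h, a value that turned to -0.48 under same-total scaling. Its share of the summed FPKM of Cox7a1, Cox7a2 and Cox7a2l, which does not depend on the scaling of a library, ran from 30.7% to 43.8% in the 6 libraries given PBS first and from 50.01% to 55.6% in the 8 given Poly I:C first. The share of Cox7a1 was 3.84% to 5.13% and 0% to 1.05%.

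**Figure D3:**
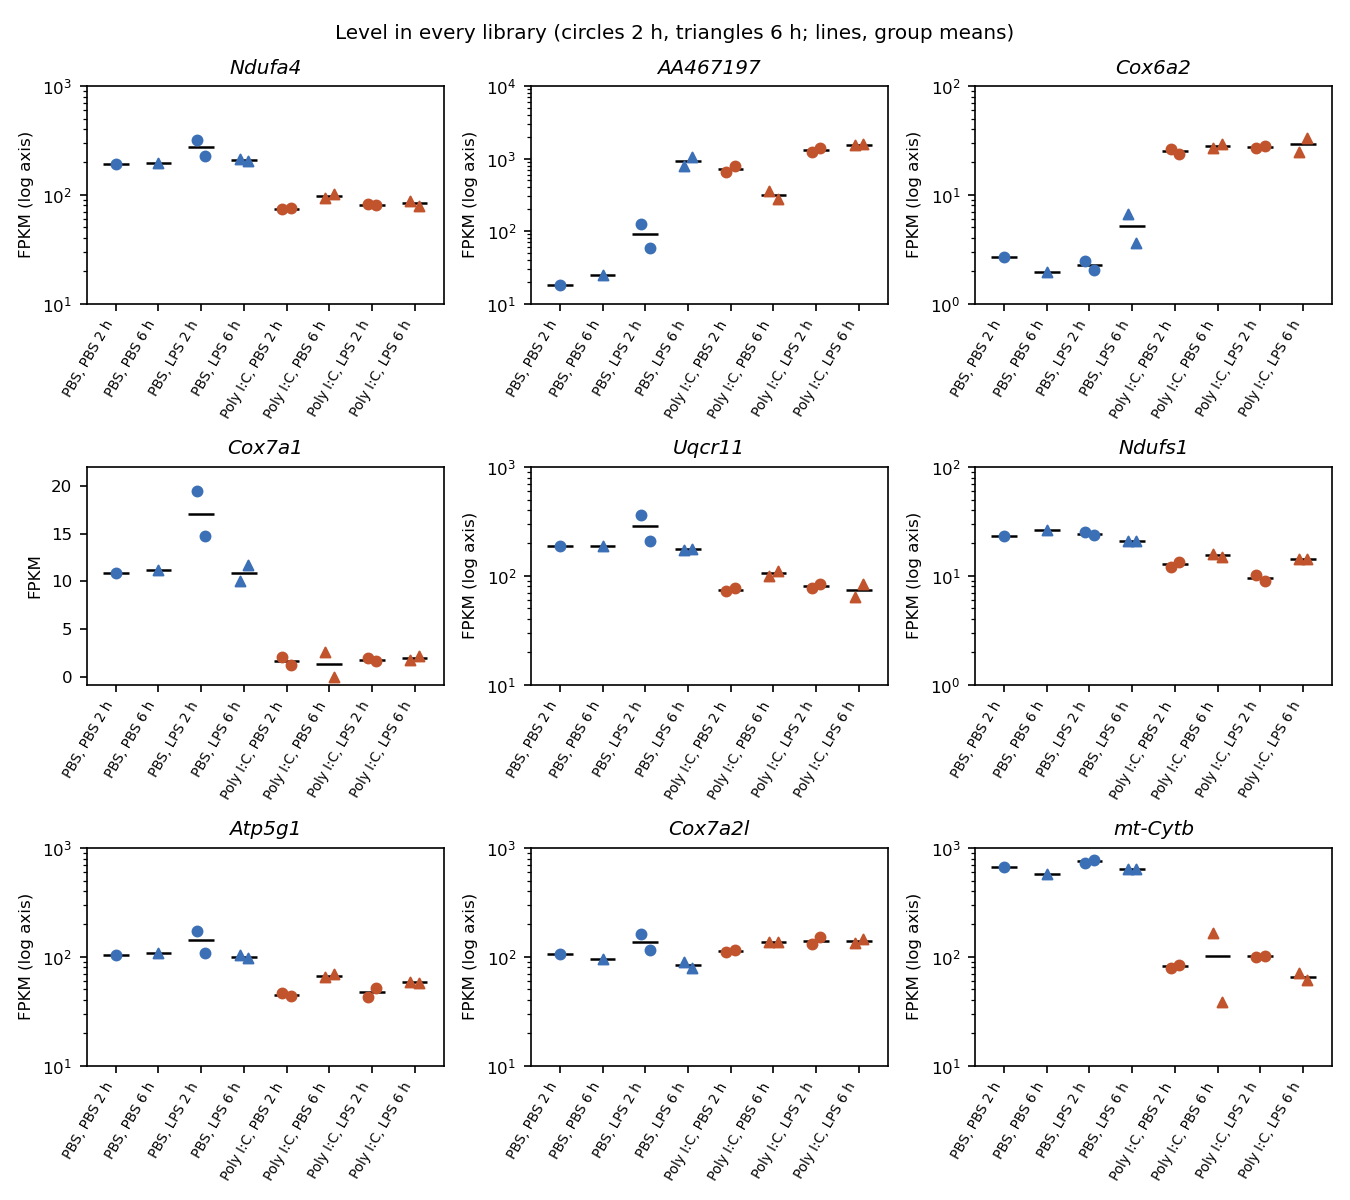
FPKM of 9 genes in every library, with blue for PBS first, orange for Poly I:C first, circles for 2 h, triangles for 6 h and lines for group means. All axes are logarithmic except that of Cox7a1, which is listed at 0 in 1 library. Ndufa4, Cox7a1, Uqcr11, Ndufs1, Atp5g1 and mt-Cytb are lower in all 8 libraries given Poly I:C first, and Cox6a2 is higher. Under same-total scaling, not drawn, Ndufs1 and Atp5g1 overlapped.

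NDUFA4 was once assigned to complex I and is now known as a subunit of complex IV, and its paralog AA467197 (known in human as C15orf48 or NMES1) can take its place. Ndufa4 (chr6:11900373-11907446) read 192 and 195 FPKM in the PBS then PBS libraries, 318, 226, 212 and 205 in the PBS then LPS libraries, and 74.0 to 103 in the 8 libraries given Poly I:C first. In the priming comparison it fell by 1.72 ± 0.15 at 2 h and 1.32 ± 0.15 at 6 h (log2, SE; adjusted p = 4.53e-06 and 5.13e-05), and by 1.47 at 2 h without the outlying library. AA467197, which is not a member and shares its entry with the microRNA gene Mir147, read 18.2 and 24.4 FPKM in PBS then PBS and 125 and 58.7 in PBS then LPS at 2 h. It read 787 and 1056 in PBS then LPS at 6 h, 658 and 795 in Poly I:C then PBS at 2 h, 357 and 278 at 6 h, and 1247 to 1585 in Poly I:C then LPS. Ndufa4 therefore made up 91.4% and 88.9% of the summed FPKM of the pair in PBS then PBS and 4.77% to 6.16% in Poly I:C then LPS. In unprimed cells 6 h after LPS its share was 21.2% and 16.3%, with Ndufa4 itself near its unstimulated level. Ndufa4l2, the other paralog, did not exceed 0.281 FPKM.

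**Figure D4:**
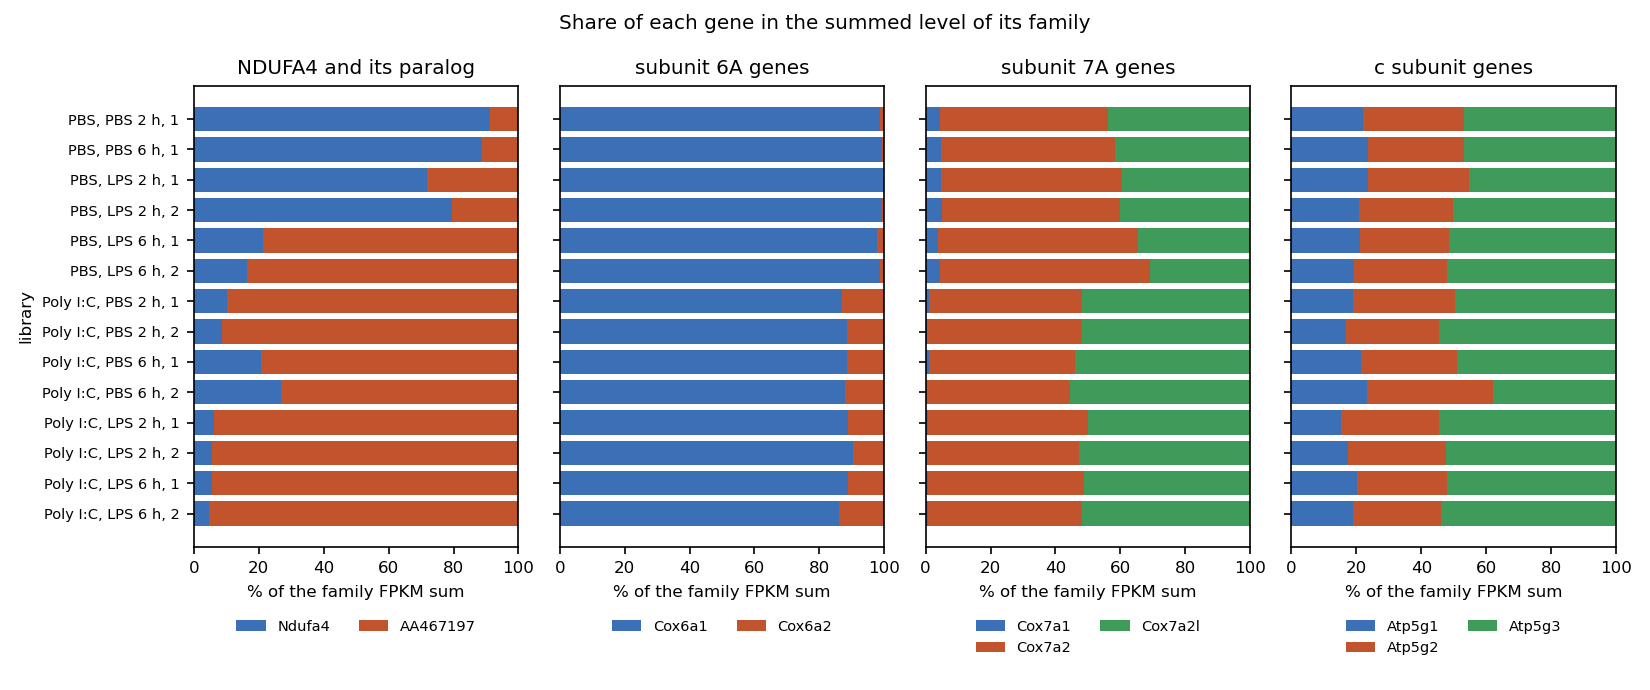
Share of each gene in the summed FPKM of its family (horizontal axis, percent) in every library (rows), for Ndufa4 with AA467197, subunit 6A, subunit 7A and the c subunit. Ndufa4 makes up 91.4% of its pair in PBS then PBS 2 h and 4.77% in Poly I:C then LPS 6 h replicate 2.

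In complex V, all 4 tested F1 genes and all 3 c subunit genes fell at 2 h, and 3 and 3 fell at 6 h. Atp5a1, the alpha subunit of F1, read 304 and 266 against 133 and 151 FPKM at 2 h and 287 and 296 against 143 and 147 at 6 h. It was about as far below at both times (-0.999 ± 0.11 and -1.01 ± 0.11 SE, adjusted p = 2.28e-05 and 3.81e-05), and without the outlying library the 2 h change was -0.90. Atp5b, the catalytic beta subunit and on average the most abundant member (348 FPKM over all libraries), changed less: -0.60 ± 0.18 (adjusted p = 0.0139) and -0.38 ± 0.18 (SE, adjusted p = 0.0989). Without the outlying library the change of Atp5b at 2 h was -0.29 (adjusted p = 0.0452). The genes Atp5g1, Atp5g2 and Atp5g3 encode the same mature c subunit. Atp5g1 read 174 and 109 against 42.6 and 51.9 FPKM at 2 h and 103 and 97.5 against 58.5 and 57.7 at 6 h, and fell by 1.53 ± 0.19 and 0.78 ± 0.19. Atp5g2 fell by 1.09 ± 0.18 and 0.78 ± 0.18, and Atp5g3 by 0.93 ± 0.16 and 0.71 ± 0.16 (log2, SE). Their shares of the summed c subunit FPKM kept within 15.3% to 23.6% for Atp5g1, 26.9% to 38.8% for Atp5g2 and 37.8% to 54.7% for Atp5g3 over all libraries.

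In the peripheral stalk, Atp5h fell at both times (0.90 ± 0.19 and 0.82 ± 0.19), whereas Atp5f1 changed by -0.26 ± 0.16 at 2 h and fell by 0.83 ± 0.16 at 6 h (log2, SE). Of the small membrane subunits, Atp5j2 fell at both times (0.74 ± 0.24 and 0.71 ± 0.24). Without the outlying library the changes at 2 h were -0.57 for Atp5h, which still passed, and -0.26 for Atp5j2, which did not (adjusted p = 0.0933). Atp5s and Atp5sl carry the prefix without being subunits of the enzyme, and the protein of Atp5sl is known as a factor in the assembly of the complex I membrane arm. Atp5sl read 6.61 and 6.12 against 5.17 and 5.57 FPKM at 2 h and 3.31 and 3.01 against 10.0 and 8.97 at 6 h. Primed libraries were slightly lower at 2 h and clearly higher at 6 h, with changes of -0.21 ± 0.14 (adjusted p = 0.202) and 1.33 ± 0.14 (SE, adjusted p = 2.72e-05). Atp5s fell at 2 h (-0.47 ± 0.16), from a mean of 1.93 to 1.12 FPKM. It rose at 6 h (0.44 ± 0.16 SE), from a mean of 0.73 to 1.33 FPKM, so its levels lay near the filter of 1 FPKM. The call at 2 h was lost without the outlying library (-0.47, adjusted p = 0.0631).

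Poly I:C alone (Poly I:C then PBS against PBS then PBS) rests on a single PBS then PBS library per time, which the test takes to vary like the other groups. At 2 h, 24 members fell and 2 rose (34.7% called, beside 47.3% of all entries, 24.9% higher and 22.4% lower), with a median of -0.42. At 6 h, 11 fell and 4 rose (20%, beside 34.5%, of which 18.4% higher and 16.1% lower), with a median of -0.15. Same-total scaling gave 58 lower and 1 higher at 2 h, and 27 lower and 3 higher at 6 h. By complex, 13, 2, 3 and 5 genes of complexes I, III, IV and V fell at 2 h and 4, 1, 2 and 3 at 6 h. Among the largest changes at 2 h and 6 h were those of Cox6a2 (2.82 ± 0.27 and 3.31 ± 0.27), Cox7a1 (-2.18 ± 0.57 and -2.68 ± 0.57), Ndufa4 (-1.35 ± 0.18 and -0.99 ± 0.18), Ndufv3 (-1.41 ± 0.28 and -1.11 ± 0.28) and Uqcr11 (-1.32 ± 0.27 and -0.85 ± 0.27), all passing the test (log2, SE). Ndufs1 fell by 0.82 ± 0.14 and 0.74 ± 0.14, and Atp5a1 by 0.93 ± 0.13 and 0.62 ± 0.13. Ndufaf1, an assembly factor of the membrane arm, rose by 0.60 ± 0.20 and 0.75 ± 0.20, from 4.67 FPKM to 6.98 and 8.23 at 2 h and from 6.42 to 10.6 and 12.5 at 6 h. Between 2 h and 6 h after the second PBS, 11 members rose in cells given Poly I:C and none fell, beside 30.4% of all entries called (59 rose under same-total scaling). Several of these counts rest on single libraries, and the share of all entries called with a library left out is not given. In PBS then LPS 2 h the replicates differed by a median of 0.56 in members and 0.29 over all entries (log2, sign dropped). This gap enters the spread that all comparisons share. Leaving out either PBS then LPS 2 h library, which enters these comparisons only through the shared spread, gave 44, 28 and 31 calls at 2 h, at 6 h and between them, and leaving out Poly I:C then PBS 6 h replicate 2 gave 7 at 6 h. The 11 calls between the times became 2 and 1 without Poly I:C then PBS 2 h replicates 1 and 2, 7 and 3 without the 6 h replicates 1 and 2, and 5 without either Poly I:C then LPS 6 h library.

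LPS alone (PBS then LPS against PBS then PBS) moved few members past the test. At 2 h, Uqcrfs1 (0.76 ± 0.21 SE) and Uqcrb (0.62 ± 0.19 SE) rose and none fell, beside 15.9% of all entries called (9.47% higher, 6.39% lower). The unadjusted p was under 0.05 for 28 members, all higher. The median member change of 0.42 rested on the outlying library: without it, no member passed and the median was 0.16, and without the other replicate 59 rose and the median was 0.72. Under same-total scaling no member rose and 1 fell. The 2 calls also became 0 without any 1 of the 4 Poly I:C 2 h libraries and 1 without any 1 of the 6 libraries of the 6 h groups that have 2 each. At 6 h, 5 rose and 4 fell, beside 43.4% of all entries (22.9% higher, 20.6% lower). The risers were Cox6a2 (1.02 ± 0.27, from 1.94 FPKM to 6.70 and 3.62), Ndufs4 (0.73 ± 0.18), Uqcrc2 (0.71 ± 0.17), Atp5f1 (0.64 ± 0.20) and Atp5a1 (0.53 ± 0.13). Those that fell were Ndufaf7 (-1.22 ± 0.19), Ndufaf4 (-1.14 ± 0.27), Atp5s (-0.84 ± 0.19) and Atp5sl (-0.70 ± 0.17, all log2, SE), of which Ndufaf7 encodes a methyltransferase that acts on a complex I subunit. Same-total scaling gave none higher and 41 lower, and turned Atp5a1 to -0.14 and Atp5f1 to -0.030. The 9 calls became 26 without either PBS then LPS 2 h library.

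In cells given Poly I:C first, LPS (Poly I:C then LPS against Poly I:C then PBS) raised Uqcrfs1 at both times, from 25.0 and 26.6 to 44.9 and 46.0 FPKM at 2 h and from 30.3 and 27.8 to 39.4 and 45.3 at 6 h. The changes were 0.79 ± 0.17 and 0.53 ± 0.17 (SE, adjusted p = 0.00706 and 0.0275), and 0.31 and 0.20 under same-total scaling, where neither passed. It was the only member that rose at either time, beside 22.8% of all entries called in either direction at 2 h (14% higher, 8.72% lower) and 43.9% at 6 h (21.7% higher, 22.2% lower). Ndufs1 (-0.38 ± 0.11) and Atp5sl (-0.78 ± 0.14) fell at 2 h. Ndufaf7 (-1.52 ± 0.15), Ndufs8 (-1.13 ± 0.19), Ndufb10 (-0.67 ± 0.20) and Ndufs7 (-0.78 ± 0.23), which was chosen after its value was seen, fell at 6 h (log2, SE). The mean of Ndufaf7 went from 3.28 to 0.50 FPKM, below the filter of 1 FPKM. Same-total scaling gave 20 lower at 2 h and 52 at 6 h, and none higher. Without either PBS then LPS 2 h library the calls were 22 and 25. At 2 h there was 1 call without Poly I:C then PBS 2 h replicate 1, and at 6 h there were 8 and 2 without Poly I:C then PBS 6 h replicates 1 and 2 and 2 without Poly I:C then LPS 6 h replicate 1.

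The test of whether LPS acted differently after Poly I:C than after PBS called no member at 2 h with limma, beside 4.29% of all entries (2.52% higher, 1.77% lower), and 2 members at an unadjusted p under 0.05. The median member value was -0.27. Without PBS then LPS 2 h replicate 1 no member was called and the median was 0.02, and without replicate 2 of that group 23 were called, all lower, and the median was -0.53. At 6 h it called 1 member, Uqcrc2, beside 29.4% of all entries, and 10 at an unadjusted p under 0.05. Uqcrc2 rose with LPS from 48.4 to 84.8 and 74.8 FPKM in unprimed cells and read 54.0 and 69.0 without and 56.5 and 55.5 with LPS in primed cells. The difference was -0.83 ± 0.21 (log2, SE; adjusted p = 0.0151), and -0.49 under same-total scaling (adjusted p = 0.127). Without either PBS then LPS 2 h library 18 members were called, all lower, with 3 calls without Poly I:C then PBS 6 h replicate 1 and 2 without either PBS then LPS 6 h library or Poly I:C then LPS 6 h replicate 2.

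The priming effect differed between 6 h and 2 h in 9 members, 8 upwards and 1 downwards, beside 44.4% of all entries (19.1% upwards, 25.3% downwards). Same-total scaling gave 62 upwards and none downwards. Without the outlying library 6 went upwards and 10 downwards, and without the other replicate of its group 38 upwards. From 2 h to 6 h after LPS in unprimed cells 14 members fell and 1 rose (49.4% of all entries called), and in primed cells 5 rose and 1 fell (40.0%), or 31 and 1 under same-total scaling. Same-total scaling gave 56 lower and 1 higher for the unprimed cells. Their 14 lower and 1 higher became 6 and 4 without the outlying library (median -0.31 with it, -0.02 without), 56 and 1 without the other replicate of its group, and 7 calls in all without either PBS then LPS 6 h library. The primed count of 6 became 22 without either PBS then LPS 2 h library (7 higher, 15 lower) and 3 without Poly I:C then LPS 2 h replicate 1. In unprimed cells the fall included Ndufaf2 (-1.24 ± 0.24), Ndufaf7 (-1.11 ± 0.15) and Cox7a2l (-0.68 ± 0.15, log2, SE, and -0.45 without the outlying library).

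**Figure D5:**
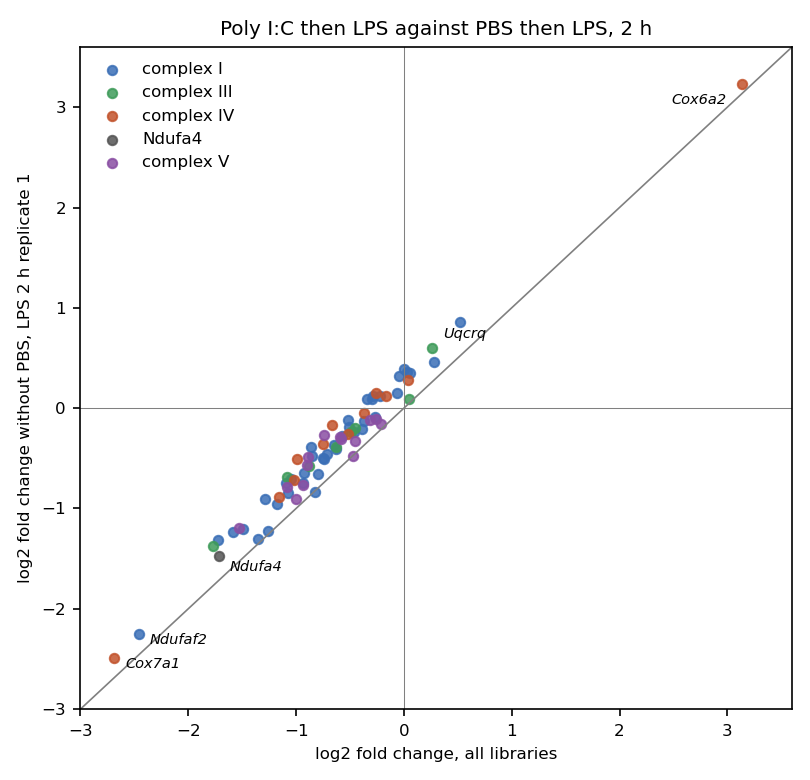
Log2 fold change of each tested gene in the priming comparison at 2 h with all libraries (horizontal axis) and without PBS then LPS 2 h replicate 1 (vertical axis), coloured by complex. The grey diagonal marks equal values. Most points lie above it (median -0.65 with and -0.37 without), while Cox6a2, Cox7a1, Ndufaf2 and Ndufa4 stay at the ends.

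Other genes of the pathway, outside the rule, were read from lists of related genes. Their counts in the priming comparison stand beside 28.5% of all entries lower and 32.6% higher at 2 h. At 6 h these shares were 25.9% and 23.7%. Of the 3 entries of mitochondrially encoded genes, 2 fell in the priming comparison at each time. The entry of mt-Cytb, which encodes cytochrome b of complex III, ran from 582 to 782 FPKM in the 6 libraries given PBS first and from 38.1 to 165 in the 8 given Poly I:C first. It fell by 2.89 ± 0.48 at 2 h and 3.27 ± 0.48 at 6 h (log2, SE), and at both times its value was lower than that of any nuclear complex III gene. The test of that difference was not run. The subunits of complex II are all nuclear, and its list also holds the assembly factors Sdhaf1 and Sdhaf2. Of the 6 genes of this list, 3 fell and 1 rose at 2 h, and 3 fell and 2 rose at 6 h. Sdha, the flavoprotein of that complex, fell by 0.39 ± 0.10 and 0.32 ± 0.10 (log2, SE).

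Genes of cytochrome c and of complex IV assembly moved in both directions. Cycs, the gene of cytochrome c, rose at 2 h (1.40 ± 0.20), from 48.7 and 35.9 to 109 and 114 FPKM, and fell at 6 h (0.55 ± 0.20, log2, SE), from 96.2 and 125 to 76.1 and 72.7. Cyc1, the gene of cytochrome c1, changed by -0.27 ± 0.11 and -0.23 ± 0.11, and passed at 2 h. Of 22 complex IV assembly genes, 8 rose and 7 fell at 2 h and 5 rose and 6 fell at 6 h. These counts lie near the shares of all entries, 32.6% higher and 28.5% lower at 2 h, and 23.7% and 25.9% at 6 h. Sco1, a copper chaperone for the enzyme, rose by 2.07 ± 0.16 at 2 h and 0.77 ± 0.16 at 6 h.

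Of the 4 inner membrane carriers of the list, all fell at 6 h and 3 at 2 h, and none rose. Slc25a4, an ADP/ATP translocase, read 93.9 and 70.0 against 6.66 and 5.38 FPKM at 2 h and 57.5 and 56.6 against 6.94 and 8.17 at 6 h. It fell by 3.55 ± 0.16 at 2 h and fell by 2.77 ± 0.16 at 6 h (log2, SE). Ucp2 fell by 0.38 ± 0.12 and 1.36 ± 0.12. Atpif1, the inhibitor of ATP synthase, fell by 1.42 ± 0.19 and 1.57 ± 0.19. Among 14 regulators of mitochondrial gene expression, 3 rose and 5 fell at 2 h, and 9 rose and none fell at 6 h. Pprc1, a relative of PGC-1, fell by 1.82 ± 0.18 at 2 h and rose by 1.91 ± 0.18 at 6 h, and Ppargc1b changed by -0.36 ± 0.15 and 0.10 ± 0.15 without passing the test.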

How the data were processed

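RNA was sequenced from 14 libraries in 8 groups of mouse bone marrow-derived macrophages. The deposited values are FPKM made by the authors with TopHat2, Cufflinks and Cuffnorm on mm9, per the submitters' processing notes, with versions, annotation and strand setting not given in the sources used here. All 82 members' deposited loci overlap their RefSeq gene in GRCm38.p6 (9 with the same ends), so loci are given as GRCm38. The number of reads is unknown: the value of 1 fragment differed 3.07-fold between libraries, and all 91 library pairs gave a ratio within 0.1 (log2) of that scale.

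The 11977 named entries that reached 1 FPKM in 2 or more libraries were tested on log2(FPKM + 1), a scale that understates changes of low genes, with limma 3.58.1 in R 4.3.3: 1 mean per group, all 14 libraries sharing the estimate of spread, an intensity trend, and Benjamini-Hochberg adjustment over all entries in each of 14 comparisons. The groups with 1 library were taken to vary like the others. The code was tested on simulated data. Tables and figures were made with Python 3.11.15. No column of another sample was used (0 such columns).

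Each library was left out in turn. The other alternatives changed the scaling (median-of-ratios, or the same total), the pseudocount (0.1), the filter (none), the trend (none) or the design: a replicate block, each time fitted by itself, or the PBS then PBS libraries pooled. Members and gene lists were chosen with earlier results of these data known. Values are named for a fixed set of members and, per class, the largest called rise and fall without overlap of groups in the first 8 comparisons. Members named beyond that (Cox7a2, Ndufaf4, Ndufaf5, Ndufs7 and Uqcrq) were chosen after their values were seen. Longer NRF1 and YY1 letters had been searched first, and the shorter letters given here were chosen after those matches were seen.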

Additional observations from a re-analysis of the deposited data

Results flagged for a closer look

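For 10 results a test of the difference between effects passed, and each is given with its value when PBS then LPS 2 h replicate 1 is left out and under same-total scaling. The LPS effect at 6 h differed between primed and unprimed cells in Uqcrc2, by -0.83 (limma adjusted p = 0.0151). It was -0.83 without that library and -0.49 under same-total scaling, where it did not pass.

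The priming effect was higher at 6 h than at 2 h in 8 genes. The differences were 1.93 for Ndufaf2, 1.79 for Ndufaf4, 1.54 for Atp5sl, 0.91 for Atp5s, 0.75 for Atp5g1, 0.73 for Ndufs1, 0.68 for Cox7a2l and 0.64 for Ndufaf5 (log2). Without the library that stood apart they were 1.72, 1.74, 1.496, 0.92, 0.42, 0.69, 0.44 and 0.41, and those of Atp5g1 (limma adjusted p = 0.0587) and Ndufaf5 (0.111) did not pass. Under same-total scaling they ran from 1.11 for Ndufaf5 to 2.46 for Ndufaf2.

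The priming effect of Uqcrc2 was lower at 6 h than at 2 h, by -0.55 (limma adjusted p = 0.0404). It was -0.59 without that library and 0.10 under same-total scaling.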

How the results depend on the processing

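Single libraries moved the counts of called members. Leaving out each library in turn gave 35 to 64 for priming at 2 h and 23 to 60 at 6 h, 0 to 59 and 8 to 26 for LPS in unprimed cells, 1 to 22 and 2 to 25 for LPS in primed cells, 18 to 44 and 7 to 28 for Poly I:C alone, 0 to 23 and 1 to 18 for the interaction. Between 6 h and 2 h it gave 7 to 57 for unprimed LPS, 3 to 22 for primed LPS, 1 to 31 for Poly I:C alone and 6 to 38 for the priming effect. Where an arm kept 1 library, it was assumed to vary like the other groups.

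Same-total scaling gave 1 and 41 calls for LPS in unprimed cells at 2 h and 6 h, 20 and 52 for LPS in primed cells, 59 and 30 for Poly I:C alone, 3 for the interaction at 6 h, and 57, 32, 59 and 62 for the differences between times of unprimed LPS, primed LPS, Poly I:C alone and the priming effect. Both PBS then PBS libraries as 1 group gave 21 and 14 calls for LPS in unprimed cells and 4 for the interaction at 6 h. Libraries of 1 time alone gave 0 and 20 for LPS in unprimed cells, 16 for LPS in primed cells at 6 h, 17 for Poly I:C alone at 2 h and 13 for the interaction at 6 h. No filter gave 1 for LPS in unprimed cells at 2 h, 2 for LPS in primed cells at 6 h, and 4 and 5 for the differences between times of Poly I:C alone and the priming effect. For LPS in unprimed cells at 2 h, no trend and a pseudocount of 0.1 gave 1 each, and that pseudocount gave 2 for the interaction at 6 h. Median-of-ratios scaling moved no count by over 1.5 times. Its factors ran only from 0.9915 to 1.044, so it hardly changed the values and says little about scaling. The cause was not tested, and the shares of all entries called in these settings are not given.

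The same-total scaling reversed LPS in unprimed cells at 6 h for Atp5a1 (-0.14), Atp5f1 (-0.030), Atp5g2 (-0.63), Atp5g3 (-0.42), Atp5h (-0.51), Ndufa4 (-0.58), Ndufv1 (-0.50) and Uqcrq (-0.53). It reversed LPS in primed cells at 2 h for Atp5g1 (-0.42), Ndufa4 (-0.38), Ndufaf1 (-0.42) and Uqcrc1 (-0.32), and priming at 2 h for Cox7a2l (-0.48), Ndufa6 (-0.46) and Uqcrc2 (-0.47). It reversed primed LPS between times for Cox7a2 (0.42), Cox7a2l (0.43) and Uqcrb (0.38), and the priming effect between times for Atp5a1 (0.65) and Uqcrc2 (0.10). Atp5j2 reversed in that last comparison without PBS then LPS 2 h replicate 1 (-0.44; 0.52 without replicate 2). Replicate numbers did not pair the samples: correlations of deviations ran from -0.19 to 0.0778 over 15 pairs of groups. A replicate block gave 7 calls for Poly I:C alone between times and moved no other count by over 1.5 times.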
